A study of Mus musculus with 12 samples.

Results

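The 34 genes described here encode the steps by which brain cells take up glucose, split it to pyruvate, exchange lactate, commit pyruvate to the mitochondrion, and store glucose as glycogen. They were picked by symbol for their place in these pathways and are 34 of the 52550 features in the deposited count table. Their symbols matched 35 rows, because Aldoa has a second row with a total of 20 counts, which was not tested. All 34 genes passed the filter on low counts, in a set of 14990 tested genes.

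Astrocytes are the glycogen-storing cells of the adult brain and are known for active glycolysis. In the lactate shuttle model they take up glucose through the transporter GLUT1, convert much of it to lactate, and export the lactate through monocarboxylate transporters to neurons. Glycogen phosphorylase breaks the glycogen store down when noradrenaline or extracellular potassium rises, and the pyruvate dehydrogenase kinases hold pyruvate back from oxidation.

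Ribosome-bound RNA was measured in somatosensory cortex of mice aged 40 postnatal days on a mixed FVB/C57 background. All mice carried the Aldh1l1-TRAP transgene, in which an astrocyte promoter drives an eGFP-tagged ribosomal protein, and ribosomes were pulled down with an antibody to eGFP. The knockout group was Fmr1-/y and the control group Fmr1+/y, with 3 libraries each (knockout libraries 14, 16 and 18, wild-type libraries 13, 15 and 17). Fmr1 encodes FMRP, the RNA-binding protein missing in fragile X syndrome, and every cell of a knockout mouse lacks it, not astrocytes alone. Whether the libraries are from different mice is not in the labels, and the p-values reflect library-to-library spread alone, which may be technical.

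Fmr1 stood at 1.32 to 4.32 CPM (library-scaled counts after TMM normalisation) in the knockout group and at 31.6 to 38.4 CPM in the control group. Total counts ran from 10953958 to 22397202 per library. Knockout libraries 14 and 16 stood apart, because 35.6% and 45.1% of their counts lay on 3 features that collect ribosomal RNA, against at most 7.45% elsewhere. The 34 genes together held 2.39% to 2.82% of the remaining counts in each library. The summed CPM of the 18 astrocyte markers was 25069 to 31599 in the knockout and 25884 to 32406 in the wild type, and that of the 20 neuron markers 2697 to 3674 and 2051 to 3582. Neuronal RNA was thus present in each pull-down. The 9 markers of oligodendrocyte precursors, 5 higher and 4 lower, summed to 212 to 254 CPM in the knockout and 186 to 202 CPM in the wild type. Most of that sum was Olig1, at 146 to 182 CPM in the knockout and 115 to 149 CPM in the wild type, which overlapped. In such bulk samples fewer cells of a type and less RNA per cell cannot be told apart.

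No glycolysis, lactate or glycogen gene passed the threshold for a difference between Fmr1 knockout and wild type. By edgeR's quasi-likelihood test with Benjamini-Hochberg adjustment over all 14990 genes, 0 of the 34 passed an adjusted p of 0.05, where 0% of all genes passed. At an unadjusted p under 0.05 there was 1 of 34, Gbe1, beside 1.77% of all genes (1.03% lower and 0.734% higher in the knockout). DESeq2, limma voom and edgeR's exact test also called 0 of the 34, with 0 at an unadjusted p under 0.05. Over all genes DESeq2 called 0.0534% and the exact test 0.06%. The median log2 fold change of the 34 was -0.013, with 16 higher and 18 lower, and the median over all genes was -0.0019 with 49.6% higher and 50.4% lower. The deleted gene was not called either at 3 libraries a group: Fmr1, at a log2 fold change of -3.53 (SE 0.41), had an adjusted p of 0.2998 in edgeR's quasi-likelihood test and 3.18e-16 in DESeq2. A count of 0 in this test therefore does not show that no gene changed.

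In the main fit, which has no term for the ribosomal RNA share, most of these genes had narrow intervals. Like the p-values, these intervals reflect library-to-library spread alone. The 95% interval of the fold lay within 1.5-fold either way for 23 of the 34 and within 2-fold for 33, against 42.1% and 72.9% of all genes. The shares of all genes were not matched for expression level. The log2 fold change was under 0.2 in size for 30 of the 34 and for 68.5% of all genes. The exception at 2-fold was Slc16a3. On the log2(CPM + 0.5) scale the difference between genotypes was, for 30 of the 34, smaller than the SD between libraries of a genotype (80.5% of all genes). The median of that SD was 0.18 for the 34 and 0.26 for all genes. Without knockout libraries 14 and 16, which leaves 1 knockout library, the median of the 34 was 0.07 with 19 higher and 0 passed. Title codes begin with 5 (libraries 13, 14 and 16) or 6 (libraries 15, 17 and 18), and the labels do not say what the code stands for. The median was -0.082 with 9 higher within the first and 0.071 with 20 higher within the second, and 17 of the 34 had the same sign in both (48.6% of all genes).

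**Figure D1:**
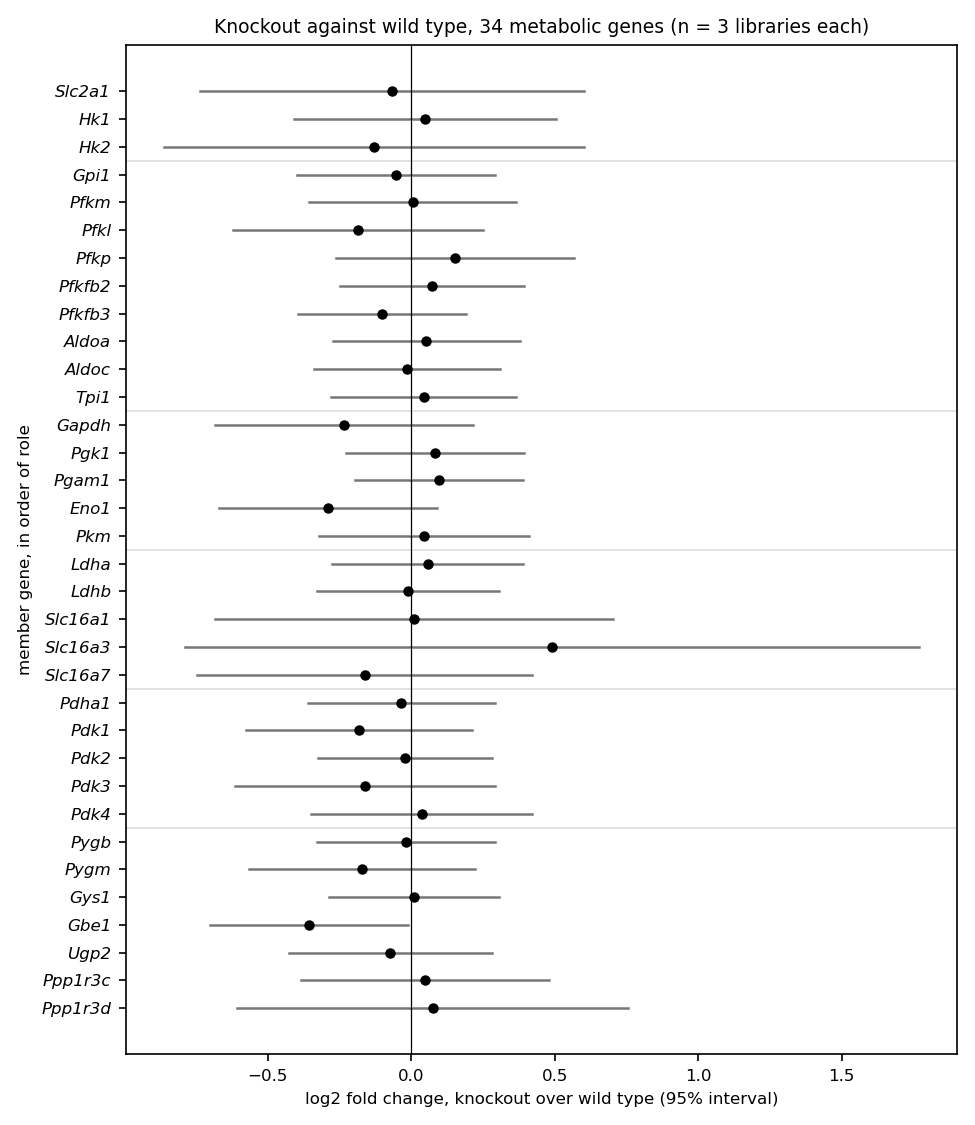
Log2 fold change, knockout over wild type, of the 34 genes in order of role (points), with 95% intervals from edgeR's quasi-likelihood fit on 3 libraries each (lines). The points lie between -0.36 and 0.49, and the interval of Gbe1 alone leaves out 0.

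Glucose entry and phosphorylation showed wide spread between libraries of 1 genotype. Slc2a1 encodes GLUT1 (chromosome 4 from 119108745 to 119137330, mm10). Its level was 71.8, 89.6 and 54.5 CPM in the knockout (libraries 14, 16 and 18, the order used throughout) against 97.4, 82.9 and 45.3 CPM in the wild type (13, 15 and 17). Library 18 was the lowest of the knockout and library 17 of the wild type, and the groups overlapped. Knockout and wild type averaged 71.9 ± 17.5 and 75.2 ± 26.9 CPM (SD, n = 3 each; log2 fold change -0.067, SE 0.29).

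Hk1, the main brain hexokinase, measured 207, 172 and 282 CPM in the knockout and 188, 219 and 234 CPM in the wild type. Knockout libraries 16 and 18 gave the lowest and the highest level of all 6, so the wild-type values lay between them (log2 fold change 0.047, SE 0.20). Hk2, the insulin- and hypoxia-responsive hexokinase, was at 3.90 ± 1.28 and 4.23 ± 0.685 CPM.

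All 9 genes of upper glycolysis had log2 fold changes under 0.2 in size. Aldoc, the brain aldolase that also marks astrocytes, measured 6732, 7035 and 7106 CPM in the knockout and 7684, 6590.2 and 6823 CPM in the wild type. The 6 libraries lay within 1.17-fold of each other, with both extremes in the wild type (log2 fold change -0.015; 95% interval of the fold 0.790 to 1.24). Pfkfb3 makes fructose 2,6-bisphosphate, the strongest activator of phosphofructokinase, and measured 48.4, 47.0 and 42.9 CPM in the knockout and 53.7, 46.7 and 47.8 CPM in the wild type. Its log2 fold change was -0.10 (SE 0.13), with overlapping groups. Pfkfb2, a second enzyme of that kind, was at 29.9 ± 3.63 and 28.3 ± 0.777 CPM (SD, n = 3 each).

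The phosphofructokinase subunits overlapped between genotypes. Pfkm, the muscle-type subunit, lay between 619 and 624 CPM in all wild-type libraries and at 604, 526 and 744 CPM in the knockout (log2 fold change 0.0054, SE 0.16). Pfkl, the liver-type subunit, measured 134, 106 and 171 CPM in the knockout and 152, 172 and 144 CPM in the wild type (-0.18, SE 0.19). Pfkp, the platelet-type subunit, was at 249, 206 and 306 CPM against 198, 241 and 247 CPM (0.15, SE 0.18). In all these subunits the lowest knockout value was in library 16, 1 of the libraries rich in ribosomal RNA, and the highest in library 18. Gpi1, which converts glucose 6-phosphate to fructose 6-phosphate, was at 474 ± 70.8 and 492 ± 20.5 CPM. Tpi1, which interconverts the triose phosphates, was at 888 ± 63.8 and 862 ± 90.03 CPM.

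In lower glycolysis, Eno1 and Gapdh had the most negative values, and both depended on libraries 14 and 16. Gapdh, the glyceraldehyde 3-phosphate dehydrogenase, measured 2315, 2076 and 3326 CPM in the knockout and 2952, 2875 and 3246 CPM in the wild type. Libraries 14 and 16 lay under all others and library 18 over all others (log2 fold change -0.23, SE 0.20). Without libraries 14 and 16 Gapdh turned to 0.16, and in a fit with a term for the ribosomal RNA share to 0.10.

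Eno1, the widely expressed enolase (chromosome 4 from 150236708 to 150248879, mm10), measured 845, 763 and 1052 CPM in the knockout and 1219, 1005 and 1029 CPM in the wild type (log2 fold change -0.29, SE 0.17). Without libraries 14 and 16 its log2 fold change was -0.019. Reads of Eno1 can be shared out to Eno1b, a near-identical retrotransposed copy. For Eno1b the knockout levels were 203, 157 and 96.2 CPM (libraries 14, 16 and 18), while the wild type had 94.5 CPM in library 15 but 1.02 and 1.03 CPM in libraries 13 and 17. Eno1b was therefore near 0 in 2 wild-type libraries and well above it in the other 4. Its groups stood apart with the knockout higher, as in 2.95% of all genes, but libraries 18 and 15 were nearly equal. With the counts of the pair summed, a fit chosen after these values were seen, the level was 1049, 919.95 and 1148 CPM in the knockout and 1220.1, 1099.5 and 1030.2 CPM in the wild type. The log2 fold change of the sum was -0.10 (SE 0.15), smaller in size than that of Eno1 alone.

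The other genes of lower glycolysis lay close to their wild-type levels. Pkm, pyruvate kinase, measured 1119, 939 and 1332 CPM in the knockout and 1056, 1153 and 1079 CPM in the wild type (log2 fold change 0.044, SE 0.16). Pgk1 was at 687 ± 52.7 and 649 ± 47.4 CPM, and Pgam1 at 711 ± 45.6 and 665 ± 28.4 CPM (SD, n = 3 each). Of the 34 genes, 14 had expected counts that were not whole numbers (by more than 0.005) in at least 1 entry, among them Gapdh, Eno1, Pgk1, Pgam1, Pkm and Ldhb. Reads of those genes were in part shared out between features, so their levels are less certain than those of the other 20.

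**Figure D2:**
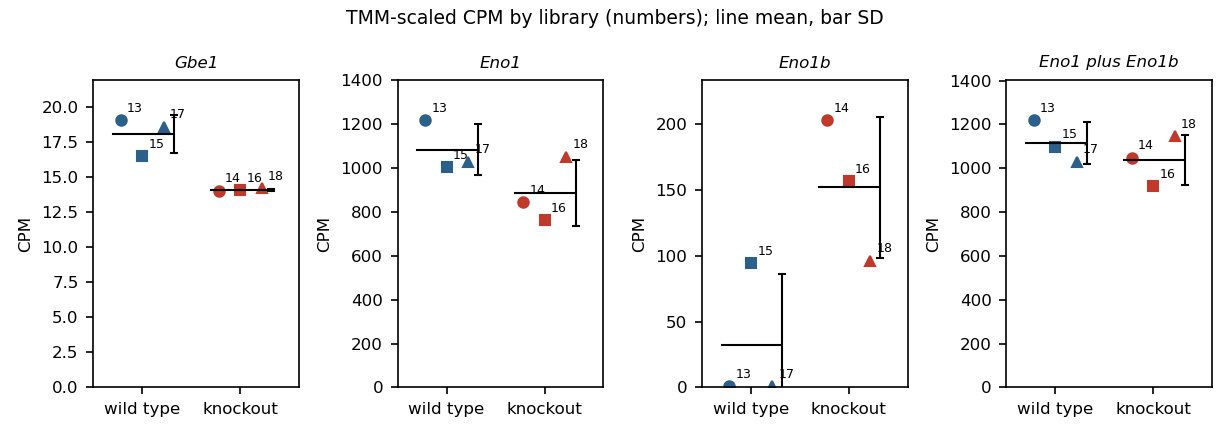
TMM-scaled CPM of Gbe1, Eno1, Eno1b and the sum of Eno1 and Eno1b in each library (numbered points, blue wild type, red knockout), with the group mean (line) and SD (bar, clipped at 0 for Eno1b). Gbe1 separates the groups, and Eno1b is near 0 in wild-type libraries 13 and 17.

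None of the lactate genes stood apart by genotype. Ldha, the lactate dehydrogenase subunit that favours lactate formation, measured 463, 359 and 428 CPM in the knockout and 374, 422 and 405 CPM in the wild type (log2 fold change 0.057; 95% interval of the fold 0.826 to 1.31). Ldhb, the subunit that favours lactate use, measured 1423, 1327 and 1393 CPM against 1554, 1362 and 1259 CPM (-0.011; 95% interval of the fold 0.797 to 1.24). For both subunits the 2 groups overlapped, and changes of 1.5-fold lay outside the intervals.

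Among the monocarboxylate transporters the spread was wider. Slc16a1 encodes MCT1, the transporter of astrocytes, oligodendrocytes and endothelium, and measured 57.5, 69.1 and 36.1 CPM in the knockout and 66.4, 60.7 and 33.8 CPM in the wild type. As for Slc2a1, libraries 18 and 17 were the low ones, 1 of each genotype (log2 fold change 0.010, SE 0.30). Slc16a7, which encodes the neuronal transporter MCT2, was at 11.7, 10.4 and 12.3 CPM against 8.39, 14.2 and 16.1 CPM (-0.16, SE 0.25). Slc16a3, which encodes the astrocyte lactate exporter MCT4, was near the detection limit at 1.14, 0.704 and 2.28 CPM against 0.511, 1.26 and 1.301 CPM. Its 95% interval of the fold ran from 0.579 to 3.41, the widest of the 34 genes, so that changes within it could not be told from none.

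Of the gatekeepers of pyruvate oxidation, 4 of 5 had means under the wild type, none past the threshold. Pdha1, the catalytic subunit of pyruvate dehydrogenase, was at 367 ± 44.2 and 376 ± 18.6 CPM (SD, n = 3 each). Of its inhibitory kinases, Pdk4, which responds to fasting and glucocorticoid, measured 49.4, 56.9 and 41.8 CPM in the knockout and 56.5, 43.3 and 44.3 CPM in the wild type (log2 fold change 0.036, SE 0.17). Pdk1, a target of hypoxia-inducible factor, was at 50.1, 34.4 and 35.4 CPM against 44.9, 42.4 and 48.7 CPM (-0.18, SE 0.17). In Pdk1 libraries 16 and 18 were the low ones, while knockout library 14 was the highest of all 6. Pdk2 was at 161 ± 7.04 and 163 ± 13.7 CPM, and Pdk3 at 17.8 ± 4.15 and 20.1 ± 2.01 CPM.

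Gbe1, the glycogen branching enzyme (chromosome 16 from 70313949 to 70569720, mm10), had the smallest p of the 34 and was the 1 gene of them whose groups did not overlap. Its level was 14.0, 14.1 and 14.2 CPM in the knockout against 19.1, 16.5 and 18.6 CPM in the wild type. The knockout values were nearly equal and all under the lowest wild-type value. They rested on 172, 100 and 367 counts, and the wild-type values on 448, 418 and 486 counts. Sampling of so few counts alone gives more spread than the knockout values show, so their near-equality does not measure a steady level. The mean was 14.1 ± 0.0866 against 18.1 ± 1.36 CPM (SD, n = 3 each; log2 fold change -0.36, SE 0.15; edgeR quasi-likelihood adjusted p = 1.00). An exact permutation of the 6 libraries gave p = 0.1, which is the lowest value possible for groups of 3. Groups apart with the knockout lower were found in 3.25% of all genes, so that 1 of 34 is near the background. Of the 34, 0 stood apart with the knockout higher, which 2.95% of all genes did (6.2% in either direction). The difference of Gbe1 was -0.43 and -0.29 within the libraries whose title code begins with 5 and 6, and -0.32 without libraries 14 and 16. Because its groups did not overlap, the sign in any such subset was fixed beforehand and adds no support. Within code 6, and without libraries 14 and 16, the only knockout library was 18. It passed the adjusted threshold in 0 of the 18 alternatives, where its adjusted p ran from 0.146 to 1.00. Its log2 fold change lay between -0.41 and -0.32 under these alternatives, apart from -0.79 on unscaled library totals.

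The other glycogen genes overlapped between genotypes. Pygb, the brain glycogen phosphorylase, measured 973, 958 and 1069.7 CPM in the knockout and 1109, 1005 and 925 CPM in the wild type (log2 fold change -0.019; 95% interval of the fold 0.796 to 1.23). Pygm, the muscle phosphorylase that astrocytes also make, was at 131, 99.1 and 151 CPM against 139, 139.6 and 150.4 CPM (-0.17, SE 0.17), with library 16 alone far under the rest. Gys1, glycogen synthase, was at 47.5, 39.9 and 47.5 CPM against 44.9, 46.6 and 42.7 CPM (0.0089; 95% interval of the fold 0.820 to 1.24).

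Ugp2, which makes the UDP-glucose for glycogen, was at 322, 324 and 243 CPM against 327, 304 and 303.7 CPM. Ppp1r3c, which brings protein phosphatase 1 to glycogen and activates its synthesis, measured 308, 357 and 246 CPM in the knockout and 351, 274 and 257 CPM in the wild type (log2 fold change 0.047, SE 0.19). Ppp1r3d, another such targeting subunit, was at 39.0, 39.4 and 19.4 CPM against 38.4, 31.1 and 22.8 CPM (0.075, SE 0.30). In all 3 genes library 18 was the lowest of the knockout libraries and library 17 the lowest of the wild-type libraries.

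**Figure D3:**
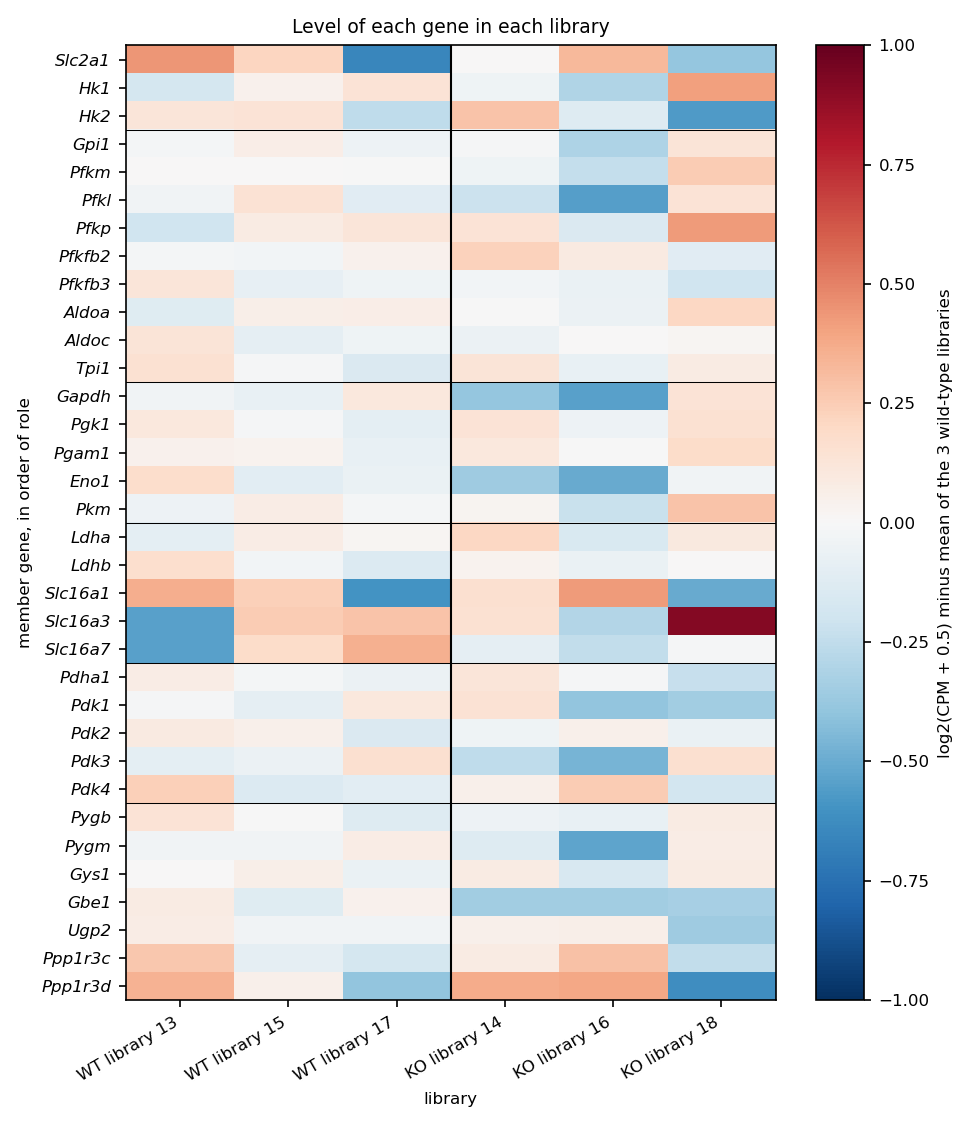
Level of the 34 genes in each library, as log2(CPM + 0.5) minus the mean of the 3 wild-type libraries (colour), with genes in order of role and wild type left of the black line. Gbe1 is the row whose knockout cells all lie below its wild-type cells, while the rows of Slc2a1, Slc16a1 and Ppp1r3d are low in libraries 17 and 18.

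Part of the spread between libraries did not follow genotype. Libraries 17 and 18 were the 2 lowest in 8 of the 34 genes (Slc2a1, Hk2, Slc16a1, Pdha1, Pdk2, Ugp2, Ppp1r3c and Ppp1r3d) and in 15.97% of all genes. Other pairs were the 2 lowest in nearly as many of the 34. Libraries 14 and 16, both knockout, were so in Pfkm, Pfkl, Gapdh, Eno1, Pdk3, Pygm and Gbe1. Library 16 was so with library 13 or with library 17 in others, such as Hk1 and Gpi1. Libraries 17 and 18 were the 2 lowest in 12 of the 18 astrocyte markers. The gap junction gene Gja1 measured 381 and 399 CPM in libraries 18 and 17 against 630 to 819 CPM elsewhere. The glutamate transporter gene Slc1a3 measured 960 and 988 CPM against 1623 to 2073 CPM. The other astrocyte markers were mixed. Ndrg2 and Gli3 were lowest in library 18, Acsbg1 in library 17 and Gfap in library 15. Glul and Aldh1l1 were not low in libraries 17 and 18. Glul, the marker of highest level, measured 10100 and 10090 CPM in libraries 18 and 17 against 8616 to 10080 CPM elsewhere. Aldh1l1 measured 453 and 415 CPM against 380 to 439 CPM. Slc2a1 and Slc16a1 are also made by brain endothelium. Its 12 markers other than Slco1c1 summed to 20.4 and 21.0 CPM in libraries 17 and 18, and to 11.7 to 17.9 CPM elsewhere. With Slco1c1 the sum was 111 and 128 CPM in libraries 17 and 18 and 193 to 210 CPM elsewhere. The part of endothelial RNA in Slc2a1 and Slc16a1 was not tested. Slco1c1, shared by astrocytes and endothelium, measured 90.6 and 107 CPM in libraries 17 and 18 and 179 to 192 CPM in the other 4.

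Ugp2 put the 6 libraries in the order of the astrocyte marker sum, which was highest in library 13 and lowest in library 18. Aldoa, another aldolase gene, put them in the order of the neuron marker sum. Its level was 1586, 1531 and 1839 CPM in the knockout against 1459.7, 1652 and 1667 CPM in the wild type (log2 fold change 0.052, SE 0.14). Slc16a3 gave that order too, at its low level, and Hk1 gave it with 1 of 15 pairs of libraries exchanged. The sums run opposite to each other in order, and these genes were picked out after their values were seen. The part of cell mixture in them was not tested.

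**Figure D4:**
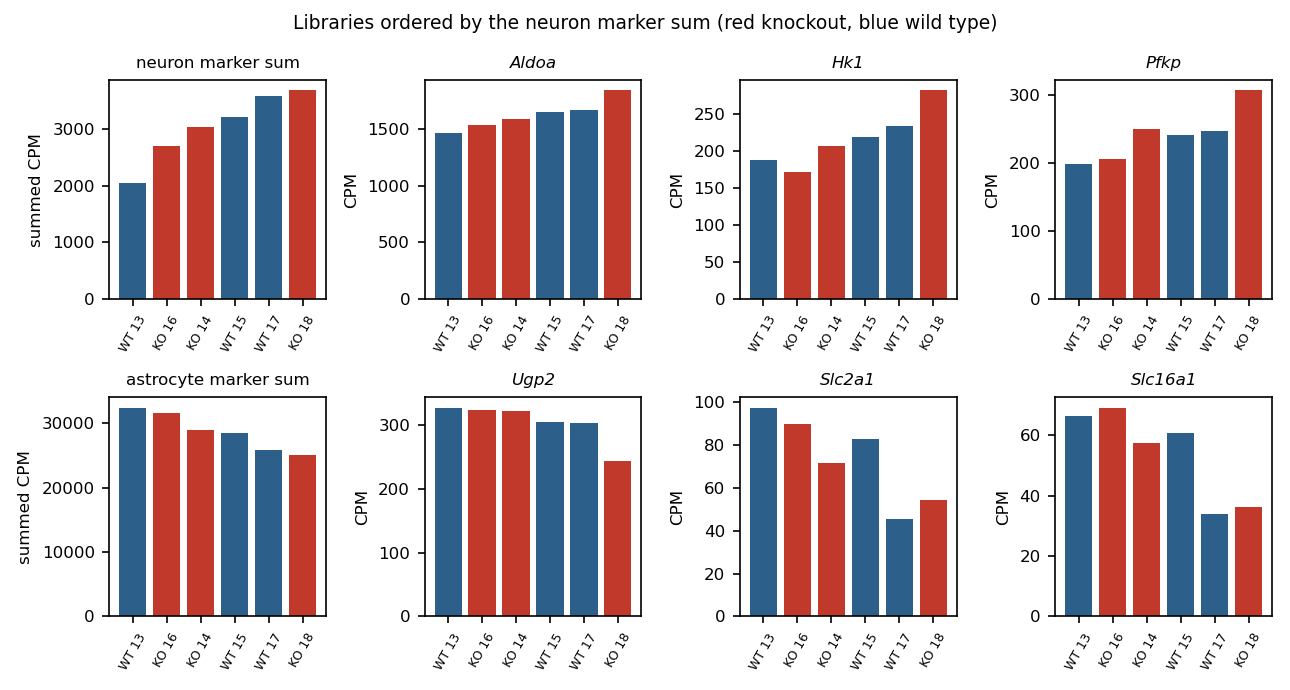
Summed CPM of the neuron and astrocyte markers and CPM of 6 genes in each library (bars, red knockout, blue wild type), with libraries ordered by the neuron marker sum. Aldoa follows that order from 1459.7 to 1839 CPM and Ugp2 the reverse, while Slc2a1 and Slc16a1 are lowest in libraries 17 and 18.

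Ratios between paired genes, which do not depend on library scaling, were compared as log2 ratios of counts with a prior of 0.5. Of the 9 ratios, 1 did not overlap between genotypes. Pfkl over Pfkm was -2.17, -2.31 and -2.12 in the knockout against -2.04, -1.86 and -2.11 in the wild type, a difference of -0.20. Its two-sided exact permutation p was 0.1, the smallest possible, and 0.9 after Benjamini-Hochberg adjustment over the 9 ratios. The smallest margin was between knockout library 18 and wild-type library 17.

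The balance of the lactate dehydrogenase subunits overlapped between genotypes. Ldha over Ldhb was -1.74 ± 0.135 in the knockout and -1.79 ± 0.227 in the wild type (SD, n = 3 each; exact permutation p = 0.7). Pygb over Pygm differed by 0.18 (exact permutation p = 0.5), Aldoa over Aldoc by 0.063 (exact permutation p = 0.8) and Slc16a1 over Slc16a7 by 0.14 (exact permutation p = 0.9). All 9 adjusted values were 0.9.

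The wider pathway also held no gene past the threshold. Of 104 further genes listed for glucose handling, 85 were tested and 0 passed an adjusted p of 0.05 by edgeR's quasi-likelihood test, with 42 higher, 43 lower and a median of -0.0057. At an unadjusted p under 0.05 there were 2, by edgeR and also by DESeq2, limma voom and the exact test, and by the first of these 1.77% of all genes passed it. These were Pdp1 and Pygl in edgeR's quasi-likelihood test. Pdp1, the phosphatase that reactivates pyruvate dehydrogenase, measured 77.5, 61.8 and 66.7 CPM in the knockout and 74.3, 108 and 102 CPM in the wild type (log2 fold change -0.46, SE 0.18). Its groups overlapped through library 14 of the knockout and library 13 of the wild type. With the title code as a covariate the genes under an unadjusted 0.05 were Pygl and Eno2 instead, and Pdp1 had a log2 fold change of -0.38.

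Among 23 further glycogen genes, 7 were higher and 16 lower, with a median of -0.022. Pygl, the liver-type phosphorylase, measured 1.88, 1.69 and 4.53 CPM in the knockout and 5.20, 6.64 and 5.36 CPM in the wild type (log2 fold change -1.02, SE 0.39). Its log2 fold change was -0.31 without libraries 14 and 16 and -1.67 without library 18. Phka1, a regulatory subunit of phosphorylase kinase, measured 79.9, 69.7 and 70.7 CPM against 89.8, 80.9 and 84.1 CPM (-0.21, SE 0.13). In these 2 genes, as in Gbe1, every knockout library lay under every wild-type library, which was so for 3.25% of all genes. None of the 3 passed the adjusted threshold. The 12 microglia markers, of which 10 had a log2 fold change below 0, summed to 57.3 to 65.6 CPM in the knockout and 63.5 to 79.8 CPM in the wild type, and their part in these values was not tested.

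In the remaining lists no gene passed the threshold. The median log2 fold change was 0.15 for 9 other glucose transporters and hexokinases, 0.043 for 12 other glycolysis and gluconeogenesis enzymes, -0.048 for 8 other lactate and pyruvate genes, -0.0067 for 7 other pyruvate dehydrogenase genes and -0.0083 for 8 pentose phosphate genes. Eno2, the neuronal enolase, was at 284 ± 87.2 and 240 ± 78.9 CPM (SD, n = 3 each). Its log2 fold change was 0.24, and 0.53 with the title code as a covariate, where the adjusted p was 0.971 in edgeR's quasi-likelihood test. Without knockout library 18 or wild-type library 13 it was -0.029 and -0.0022. Rpia, the ribose phosphate isomerase, was at 10.9 ± 1.02 and 9.46 ± 0.368 CPM. It was the 1 gene of the 85 whose groups stood apart with the knockout higher, beside 2.95% of all genes. Of 18 hypoxia and glucose-sensing regulators, 12 were higher and 6 lower (median 0.045), and Txnip, which restrains glucose uptake, was at 5.91 ± 1.64 and 8.25 ± 3.22 CPM. The glucose transporter gene Slc2a8 had a log2 fold change of 0.31, the hexokinase gene Hkdc1 0.21, the pyruvate carboxylase gene Pcx 0.15, the D-lactate dehydrogenase gene Ldhd -0.18 and the mitochondrial pyruvate carrier gene Mpc2 0.099, none past the threshold.

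Promoters of these genes often hold the core letters to which hypoxia-inducible factor binds, the factor known for inducing glycolytic genes. RefSeq promoter windows (GRCm38.p6, the assembly of mm10), from 250 bases before to 50 after a start site, were found for 33 of the 34 genes. ACGTG or GCGTG, on either strand, occurred in at least 1 window of 29 of the 33 (87.9%), against 46.7% of all genes in that table. Counted by window, which does not favour genes with several windows, it was 78.0% of 50 against 43.8% of 32851. All genes were not matched to the 33 for expression level or base composition. ACGTG alone occurred in 22 of the 33 (66.7%) against 21.8%, and CACGTG, the E-box that contains it, in 8 (24.2%) against 8.09%. These shares describe letters in a window and are not evidence of binding.

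Promoters of 3 genes are shown because they span this range: Ldha with 7 matches in 1 window, Slc16a1 with 5, and Gbe1, the gene whose groups stood apart, with 0. Capitals mark ACGTG or GCGTG on either strand, and a CACGTG counts as a match on each strand. The windows lie at chr7:46845554-46845853 (plus strand), chr3:104638414-104638713 (plus strand) and chr16:70313699-70313998 (plus strand).
Ldha: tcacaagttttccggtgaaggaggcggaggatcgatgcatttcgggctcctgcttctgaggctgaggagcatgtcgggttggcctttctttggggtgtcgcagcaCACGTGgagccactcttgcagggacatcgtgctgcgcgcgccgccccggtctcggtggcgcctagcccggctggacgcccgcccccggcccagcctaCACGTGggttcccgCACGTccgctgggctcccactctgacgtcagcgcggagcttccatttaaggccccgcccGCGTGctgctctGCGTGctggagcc
Slc16a1: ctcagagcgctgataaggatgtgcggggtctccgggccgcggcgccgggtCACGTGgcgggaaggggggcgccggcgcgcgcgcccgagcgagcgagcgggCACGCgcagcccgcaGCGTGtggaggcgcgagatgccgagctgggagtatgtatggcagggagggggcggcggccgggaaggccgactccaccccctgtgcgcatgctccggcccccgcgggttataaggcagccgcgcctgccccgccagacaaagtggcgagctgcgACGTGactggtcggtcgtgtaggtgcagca
Gbe1: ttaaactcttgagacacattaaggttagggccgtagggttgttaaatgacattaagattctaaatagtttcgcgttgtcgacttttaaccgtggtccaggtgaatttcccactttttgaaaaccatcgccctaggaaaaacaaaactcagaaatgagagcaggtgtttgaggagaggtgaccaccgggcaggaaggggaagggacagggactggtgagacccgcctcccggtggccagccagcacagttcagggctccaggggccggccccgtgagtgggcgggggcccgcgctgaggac

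In the authors' deposited table all 34 genes are listed, with 16 above 0 and 0 at an adjusted p under 0.05. The authors' deposited table gives Gbe1 a log2 fold change of -0.36 with a p of 0.00988 and an adjusted p of 0.388, and Eno1 -0.29 with a p of 0.0424. It lists all 12 entries, and the labels do not say whether its test took the 2 entries of a library as separate samples. With entries summed by library, edgeR's quasi-likelihood test gave an unadjusted p of 0.0446 for Gbe1 and 0.117 for Eno1. The quasi-likelihood test on 12 entries as separate samples gave Gbe1 an adjusted p of 0.146 and called 0 of the 34.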

How the data were processed

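Ribosome-bound RNA of 6 libraries was deposited as 12 entries, 2 per library. Per the submitters' processing notes, reads were handled with STAR 2.5.3a and RSEM 1.3.0 on mm10. Neither the annotation release nor the strand setting was given in the sources used here. The deposited values used were RSEM expected counts per gene. The 2 entries of a library differed somewhat more than sampling noise alone would give, and far less than separate libraries did (chi-square per degree of freedom 1.17 to 2.34, against 17.8 to 407). They were summed and rounded, as 1 library. Genes were filtered with filterByExpr, scaled by TMM and tested with the quasi-likelihood F test of edgeR 4.0.16 in R 4.3.3, with Benjamini-Hochberg adjustment at 0.05. In simulated data for this comparison over 14990 genes, 35% of 2-fold and 97% of 4-fold changes were recovered, with 8 false calls. In the measured data Fmr1, at a log2 fold change of -3.53, had an adjusted p of 0.2998 in edgeR's quasi-likelihood test. The simulated rates therefore need not hold for the measured data. Alternatives were DESeq2 1.42.0, limma 3.58.1 and others. The authors' deposited table of log2 fold changes and p-values is quoted where named. The authors' deposited scaled signal was not used. Every gene of the 34 is described, with values of every library for those of smallest p, highest level, groups apart, or on a list of main enzymes and transporters, and up to 3 genes of smallest p per wider list. The members and lists were chosen with earlier results of these data known. Intervals of the fold cover 95%.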

Additional observations from a re-analysis of the deposited data

How the results depend on the processing

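Of the 34 genes, 0 passed the adjusted threshold in any of the 18 alternatives. Pfkfb3, Eno1, Pdk1 and Gbe1 kept their direction in all of them, while 30 changed sign somewhere. All 4 were lower in the main fit. For Gbe1, leaving out libraries could hardly change the sign, because its groups did not overlap. Library totals without TMM left 1 of the 34 higher, against 16 in the main fit, so genes higher in the main fit nearly all changed sign in that setting. Of the genes that did, only Pgk1 and Pgam1 changed sign in no other setting. The share of all genes that kept their direction was not computed. Over all genes, 0 passed by the quasi-likelihood test of edgeR (with 265 below 0.05 unadjusted) and 0 by limma voom, 8 by DESeq2, 9 by edgeR's exact test, 6 without the low-count filter, 2 on library totals, 1 with a covariate for the ribosomal RNA share and 14 with 12 entries as separate samples. Leaving out 1 library gave 0 to 2. The cause was not tested.

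Library totals without TMM count the ribosomal RNA reads of libraries 14 and 16, and moved the median of the 34 to -0.45 and that of all genes to -0.44, with 1 of the 34 higher. The log2 fold change then turned negative for Hk1 (-0.32), Pfkm (-0.38), Pfkp (-0.23), Pfkfb2 (-0.39), Aldoa (-0.36), Tpi1 (-0.38), Pgk1 (-0.34), Pgam1 (-0.32), Pkm (-0.34), Ldha (-0.37), Slc16a1 (-0.51), Pdk4 (-0.45), Gys1 (-0.41), Ppp1r3c (-0.45), Ppp1r3d (-0.46), Slc2a8 (-0.18), Hkdc1 (-0.19), Slc37a4 (-0.24), Eno2 (-0.11), Pcx (-0.21), Mpc2 (-0.36), Rpia (-0.25), Pgls (-0.28), Mlx (-0.27) and Hif1an (-0.23). Without knockout libraries 14 and 16, where the lone knockout library is assumed to vary like the others, the median of the 34 was 0.07, and the values that changed sign were Gpi1 (0.15), Pfkl (0.16), Pfkfb2 (-0.093), Aldoc (0.040), Gapdh (0.16), Ldhb (0.027), Slc16a1 (-0.54), Pdk3 (0.18), Pdk4 (-0.17), Pygb (0.10), Pygm (0.10), Ppp1r3c (-0.23), Ppp1r3d (-0.64), Slc2a13 (0.054), Mpc2 (-0.0021) and Pgd (0.15). In the fit with a term for that share of ribosomal RNA they were Gpi1 (0.12), Pfkl (0.090), Pfkfb2 (-0.072), Aldoc (0.018), Gapdh (0.10), Ldhb (0.017), Slc16a1 (-0.53), Pdk3 (0.13), Pdk4 (-0.17), Pygb (0.070), Pygm (0.080), Ppp1r3c (-0.22), Ppp1r3d (-0.56), Slc2a13 (0.039), Mpc2 (-0.015) and Pgd (0.10). With the title code as a covariate they were Slc16a1 (-0.23), Slc16a7 (0.042), Pdk4 (-0.078), Ppp1r3c (-0.093) and Ppp1r3d (-0.22), and with limma voom Pfkm (-0.0086), Slc16a1 (-0.017) and Ppp1r3d (-0.035). The cause was not tested.

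Leaving out 1 library at a time changed the sign of the following genes, whose lowest and highest values were Pfkfb2 (-0.015 to 0.17), Aldoc (-0.050 to 0.053), Ldha (-0.026 to 0.15), Slc16a1 (-0.24 to 0.24), Gys1 (-0.033 to 0.085), Ppp1r3d (-0.10 to 0.35), Gpi1 (-0.15 to 0.059), Ldhb (-0.078 to 0.076), Pdk4 (-0.076 to 0.17), Pygb (-0.080 to 0.052), Ppp1r3c (-0.085 to 0.19), Slc2a13 (-0.34 to 0.011), Slc2a1 (-0.33 to 0.16), Hk1 (-0.17 to 0.20), Hk2 (-0.41 to 0.10), Pfkm (-0.14 to 0.11), Pfkp (-0.0056 to 0.28), Aldoa (-0.032 to 0.10), Pkm (-0.091 to 0.16), Slc16a3 (-0.12 to 0.76), Pdha1 (-0.12 to 0.054), Pdk2 (-0.091 to 0.022), Ugp2 (-0.14 to 0.053), Eno2 (-0.029 to 0.44), Pcx (-0.061 to 0.29), Bsg (-0.28 to 0.078), Tpi1 (-0.026 to 0.13) and Slc16a7 (-0.39 to 0.029). Among the isoform ratios Gys1/Pygb ranged from -0.045 to 0.073 on the log2 scale, and the others whose sign changed were Ldha over Ldhb (-0.073 to 0.14), Slc16a1 over Slc16a7 (-0.35 to 0.60), Pdk2 over Pdk4 (-0.15 to 0.036), Hk1 over Hk2 (-0.27 to 0.44) and Aldoa over Aldoc (-0.064 to 0.14). Gapdh and Eno1 had unadjusted p of 0.0183 and 0.0276 without knockout library 18 (log2 fold changes -0.46 and -0.43), where edgeR's quasi-likelihood adjusted p was 0.9991 for both.

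No paired analysis was made, because the labels do not pair knockout with wild-type libraries. Slc16a3 rested on 5 to 59 counts per library. How far depth rather than spread between libraries set its interval was not tested.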
